A study of Mus musculus with 11 samples.

Results

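Lipid droplet genes are described here as a group of 10 genes in mouse liver after acetaminophen (APAP) injury. The members were picked by gene symbol from 31053 genes in the count matrices: Plin2, Plin4 and Plin5, which code for coat proteins of the perilipin family, Cidec and Cideb, which code for proteins of the CIDE family, Cd36 and Fabp4 for fatty acid uptake and binding, Pnpla2 for the lipase that starts triglyceride breakdown, and G0s2 and Hilpda for its inhibitors. All 10 passed the filter on low counts in each of the comparisons made. Expression was measured with Visium, an array of barcoded spots that captures RNA from a tissue section, so that each spot gives counts of unique molecular identifiers (UMIs) from a small area holding several cells. Mice were fasted and then given a toxic dose of APAP into the peritoneum, and liver was sectioned frozen. The sections fall into 4 groups: 3 from uninjured liver (0 h), 2 taken 24 h after APAP, 2 at 36 h and 4 at 48 h, the injured ones carrying the label POD. The strain was C57BL/6JCrl, with no transgene or deletion named for any group. Whether the mice at 0 h had also been fasted is not stated. For the spatial data the methods count a single mouse liver at each time point. They do not state which mouse each section came from. On that count all sections of a time point share a mouse, and mouse and time point cannot be told apart. Every n below counts sections, not mice. Every p-value below covers the spread between sections, which on that count is technical and leaves out the spread between mice.

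A lipid droplet is a core of triglyceride and sterol esters under a single layer of phospholipid, on which coat proteins sit. Perilipins shield the core from lipases, CIDE proteins let droplets exchange and merge their lipid, and Pnpla2 (also called ATGL) cleaves triglyceride to diglyceride and is held back by G0s2 and Hilpda. In the liver most stored lipid lies in hepatocytes, fasting raises the flow of fatty acids from adipose tissue to them, and the nuclear receptor PPAR alpha, which binds DNA at direct repeats of AGGTCA, drives many of these genes.

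The start regions of 3 members that changed with injury are shown as examples, Plin2 being lower and Cd36 and Hilpda higher. Plin2 and Cd36 carry the AGGTCA letters, and Plin2 and Hilpda the ACGTG letters of the hypoxia response. Plin5 also carries AGGTCA and was lower at 24 h and 48 h, but is not shown. RefSeq start windows (build GRCm38.p6; 250 bases before the start base and 50 from it) matched 9 of the 10 members by symbol, with 12 windows among them, and Fabp4 was not in the table. Capitals mark AGGTCA or its reverse complement TGACCT, and ACGTG or CACGTG, which reads the same on both strands so that its overlapping matches count as 1 site. The Plin2 stretch is chr4:86670050-86670309 on the minus strand, that of Hilpda is chr6:29272376-29272635 on the plus strand and that of Cd36 is chr5:17835887-17836146 on the minus strand, each ending 10 bases into the transcript. Hilpda has another window (chr6:29272238-29272497 when cut alike), whose start base is the first base of the gene (29272488). That window holds no ACGTG. The Cd36 stretch lies inside the gene, whose first base on the minus strand is 17888801.
Plin2: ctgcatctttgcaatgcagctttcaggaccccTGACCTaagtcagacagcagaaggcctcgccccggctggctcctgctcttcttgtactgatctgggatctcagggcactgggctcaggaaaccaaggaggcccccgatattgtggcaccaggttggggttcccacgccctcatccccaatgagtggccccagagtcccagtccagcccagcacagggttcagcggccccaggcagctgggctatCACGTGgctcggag
Hilpda: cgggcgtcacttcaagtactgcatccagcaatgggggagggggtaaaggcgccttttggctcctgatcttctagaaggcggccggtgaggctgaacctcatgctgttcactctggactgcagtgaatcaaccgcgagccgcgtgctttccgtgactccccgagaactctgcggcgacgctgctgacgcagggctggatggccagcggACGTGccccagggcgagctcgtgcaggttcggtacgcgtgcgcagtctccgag
Cd36: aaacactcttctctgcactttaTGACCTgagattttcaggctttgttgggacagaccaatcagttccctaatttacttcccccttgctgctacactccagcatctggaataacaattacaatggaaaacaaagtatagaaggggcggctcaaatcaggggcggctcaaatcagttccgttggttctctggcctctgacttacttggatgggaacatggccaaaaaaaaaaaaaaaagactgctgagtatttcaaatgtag
AGGTCA, searched on both strands, lay in the windows of 3 of 9 members (Plin2, Cd36 and Plin5) and in 16.3% of all 32851 windows. Its direct repeat with 1 base between the copies lay in 0 of 9 members and in 0.0396% of all windows. ACGTG lay in 2 of 9 members against 19.6% of all windows, and TATAAA in 1 of 9, Cideb, against 13.6%. The member counts are per gene and the shares are per window, so they are not on the same footing. The matches describe letters in these windows only.

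In mm10 coordinates Plin2 lies on chromosome 4 (86648386 to 86670060, minus strand) and Plin4 and Plin5 lie beside each other on chromosome 17 (56100591 to 56109803 and 56111601 to 56117596, both minus). Cd36 is on chromosome 5 (17781690 to 17888801, minus), Hilpda and Cidec on chromosome 6, Cideb on chromosome 14, G0s2 on chromosome 1, Pnpla2 on chromosome 7 and Fabp4 on chromosome 3. Plin4, Cideb and G0s2 each overlap a gene on the other strand (Hdgfl2, Nop9 and Lamb3), and their counts can hold reads of that neighbour if counting did not use strand, which the sources used here do not state.

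Between 1490 and 3466 spots passed per section, with 31292663 to 67045372 UMIs in all and a median of 15168 to 29950 per spot. Levels are given as CPM (UMIs of a gene per 1000000 UMIs of the section) after TMM scaling, which sets the median gene level between sections near equal. With plain division by the total, the median log2 change of all genes moved up by 0.33, 0.44 and 0.53 in the comparisons of 24 h, 36 h and 48 h with 0 h, and the share of calls that were higher rose from 55.4, 57.5 and 52.7% to 80.4, 94.1 and 93.7%. Summed hepatocyte markers (6 genes) were 109800 to 114800 CPM at 0 h, 82690 to 95590 at 24 h, 81810 to 99080 at 36 h and 72900 to 89360 at 48 h, with no marker at 0 in any section, as fits the label of liver. Mononuclear phagocyte markers (4 genes) summed to 409 to 435 CPM at 0 h and 722 to 1327 at 48 h, and myofibroblast markers (4 genes) to 37.5 to 45.9 and 484 to 1185. Section B at 36 h stood apart from section A for several members, so the change of each member at 36 h is also given without section B. Its median mitochondrial share per spot was 4.56%, against 1.69% in section A. That share was 4.31 to 6.38% at 0 h and 1.75 to 2.67% at 24 h and 48 h. Which of the 2 sections at 36 h is unusual was not tested. Section A at 48 h held the most adipocyte transcripts (Adipoq 18 UMIs, Cfd 294, Retn 53, Lep 0), against at most 2 UMIs of Adipoq, 84 of Cfd and 6 of Retn in any other section. Barcodes off the tissue held 10.7 to 24.9% of all UMIs, and the members' level there was a median of 0.68 (Cd36) to 1.05 (G0s2) times that on tissue. In spots and in whole sections, fewer cells of a type and less RNA per cell cannot be told apart.

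Against uninjured liver, the group split: Cd36, Fabp4, Hilpda and Cidec were higher at 1 or more times after APAP, while Cideb, Plin2, Plin5, Plin4 and G0s2 were lower at 1 or more times. At 24 h 5 of 10 members passed the test (edgeR quasi-likelihood test, two-sided, Benjamini-Hochberg adjusted p under 0.05 over 14821 genes), 2 higher and 3 lower, where 41.7% of all genes did, 23.1% higher and 18.6% lower. At 36 h 5 of 10 passed, 3 higher and 2 lower, against 29.2% of all genes, 16.8% higher and 12.4% lower. At 48 h 8 of 10 passed, 3 higher and 5 lower, against 44.2% of all genes, 23.3% higher and 20.9% lower. The 3 comparisons share the 0 h sections. The members' median log2 change was -0.36 at 24 h, 0.30 at 36 h and -0.57 at 48 h, beside 0.05, 0.05 and 0.01 over all genes.

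**Figure D1:**
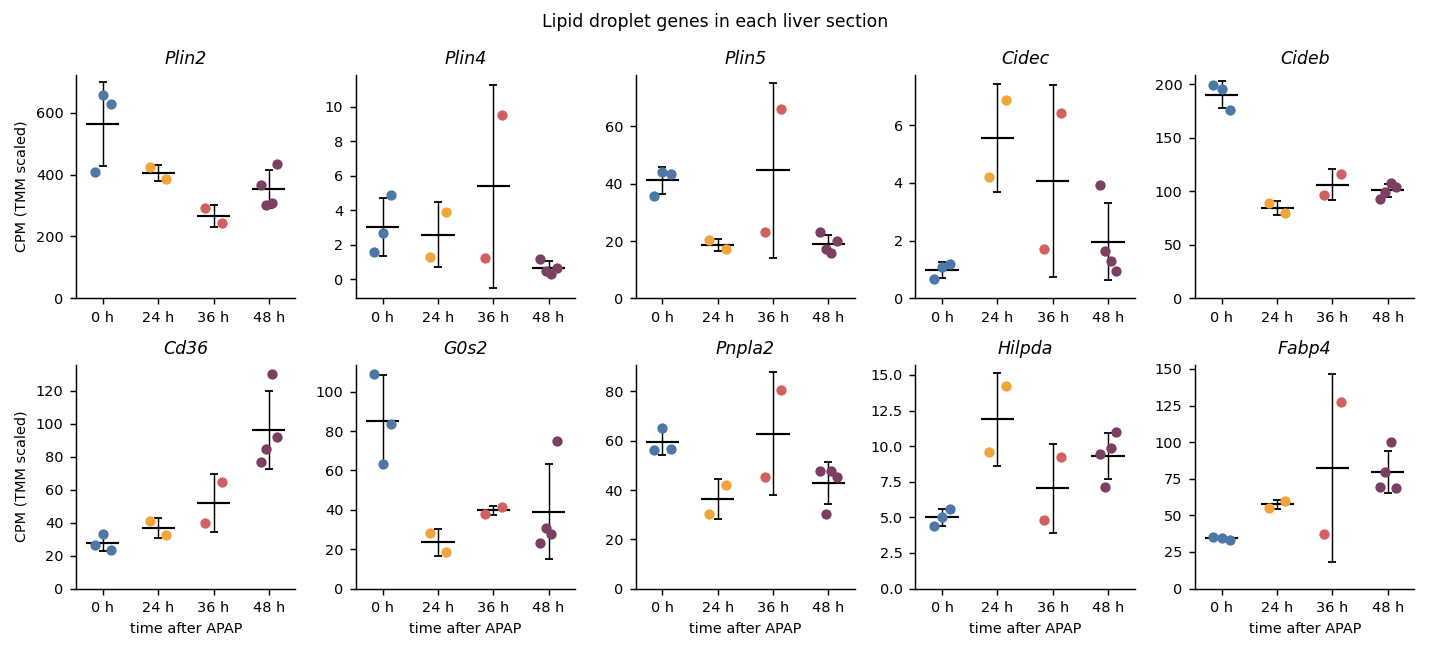
Level of each lipid droplet gene in every section (CPM after TMM scaling, vertical axes; time after APAP, horizontal axes); points are sections, and bars are the mean ± SD of each time point. Cideb fell at all 3 times with no overlap with 0 h, Cd36 was highest at 48 h (76.9 to 130.3 CPM), and the 36 h sections lie far apart for Plin4, Plin5, Cidec and Fabp4.

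Plin2, the main perilipin of hepatocytes and the member with the most UMIs (218819 in all), was lower after injury. In the 0 h sections it measured 407.6, 657.3 and 626.8 CPM. It was 423.1 and 387.4 CPM at 24 h, 292.8 and 242.0 at 36 h, and 366.9, 301.3, 308.9 and 435.7 at 48 h. Only the 36 h sections lay wholly below 0 h; the lowest uninjured section overlapped those at 24 h and 48 h. Plin2 changed by a log2 value of -1.08 ± 0.22 (SE, n = 2 against 3, edgeR adjusted p = 0.00639) at 36 h and -0.67 ± 0.18 at 48 h (adjusted p = 0.0115). Without 36 h section B the 36 h change was -0.95 (adjusted p = 0.0467). At 24 h the change of -0.48 ± 0.22 did not pass (adjusted p = 0.105). The 48 h call was lost without 0 h section 3 (-0.55, adjusted p = 0.0594), and total-count scaling removed it too (-0.15, adjusted p = 0.491), while at 24 h Plin2 passed without 0 h section 2 (-0.70, adjusted p = 0.0216).

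Plin5, the perilipin of oxidative tissues that ties droplets to mitochondria, was at 35.8, 44.2 and 43.5 CPM at 0 h. It fell to 20.2 and 17.3 CPM at 24 h and to 23.1, 17.1, 15.98 and 19.9 at 48 h, all below the lowest uninjured section. At 36 h section A was at 23.1 CPM and section B at 66.2, on either side of the 0 h range. The log2 change was -1.13 ± 0.36 at 24 h (n = 2 against 3, edgeR adjusted p = 0.0269) and -1.12 ± 0.28 at 48 h (n = 4 against 3, adjusted p = 0.00973), and 0.12 ± 0.34 at 36 h (adjusted p = 0.821). The 36 h value depended on the section: without B it was -0.83 (adjusted p = 0.0241), and without A it was 0.68 (adjusted p = 0.0244). Under total-count scaling the changes at 24 h and 48 h were -0.81 and -0.59 with adjusted p of 0.0691 and 0.0805, and the 24 h call was also lost without 0 h section 3, 24 h section A or 24 h section B (-1.03 to -1.25, adjusted p of 0.0523 to 0.144).

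Plin4, a perilipin best known from fat and muscle, was rare, with 20 to 335 UMIs a section. It was at 1.61, 2.67 and 4.89 CPM at 0 h, 1.27 and 3.92 at 24 h and 1.22 and 9.56 at 36 h. At 48 h all 4 sections, at 1.19, 0.48, 0.29 and 0.65 CPM, were below the lowest of 0 h. The log2 change was -0.25 ± 0.84 at 24 h (edgeR adjusted p = 0.84) and 0.83 ± 0.81 at 36 h (adjusted p = 0.463), the latter being -1.31 without 36 h section B and 1.65 without A (adjusted p of 0.351 and 0.118). Its log2 change at 48 h was -2.20 ± 0.72 (SE, n = 4 against 3, edgeR adjusted p = 0.0312). This call was lost without 0 h section 3 or 4 or 48 h section B, C or D (-1.72 to -2.30, adjusted p of 0.0578 to 0.113) and under total-count scaling (-1.68, adjusted p = 0.0594).

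Cideb, the CIDE protein of hepatocytes that also loads lipid onto very-low-density lipoprotein, fell at every time and was the steadiest member. It measured 199.2, 195.3 and 175.8 CPM in uninjured liver. It was 88.7 and 79.4 CPM at 24 h, 96.1 and 116.2 at 36 h, and 93.04, 98.8, 107.4 and 103.6 at 48 h. All 8 injured sections lay below all 3 uninjured ones. Cideb was 2.26-fold lower at 24 h (log2 -1.18 ± 0.13, edgeR adjusted p = 8.8e-05), 1.79-fold lower at 36 h (-0.84 ± 0.12, adjusted p = 0.00138) and 1.89-fold lower at 48 h (-0.92 ± 0.10, adjusted p = 8.33e-05), with -0.99 at 36 h without section B (adjusted p = 0.00297), and it was called at each time under every alternative run, total-count scaling included. The summed hepatocyte markers were also lower in all 8 injured sections, and their part in the result was not tested.

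Cidec, which drives droplet fusion and is at home in adipocytes, was low and moved the other way. At 0 h it was at 0.66, 1.09 and 1.19 CPM, from 30 to 59 UMIs a section. It rose to 4.21 and 6.86 CPM at 24 h and was at 1.71 and 6.42 at 36 h, in both cases above all uninjured sections. At 48 h the sections were at 3.91, 1.65, 1.31 and 0.95 CPM and overlapped 0 h. The log2 change was 2.50 ± 0.65 at 24 h (n = 2 against 3, edgeR adjusted p = 0.0119), 2.06 ± 0.66 at 36 h (adjusted p = 0.0401) and 1.01 ± 0.58 at 48 h (adjusted p = 0.182). The 24 h call was lost without 24 h section B (2.11, adjusted p = 0.0751). The 36 h call was lost without 36 h section B (0.81, adjusted p = 0.479) and without 0 h section 2, 3 or 4, 24 h section A or 48 h section B (1.82 to 2.18, adjusted p of 0.0502 to 0.115), while under total-count scaling Cidec also passed at 48 h (1.53, adjusted p = 0.0371). The highest 48 h value is from section A, which held the most adipocyte transcripts, and their part in it was not tested.

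Cd36, a scavenger receptor that takes long-chain fatty acids and oxidized lipoproteins into cells, showed the largest rise of the group at 48 h. Uninjured sections were at 26.4, 32.98 and 23.2 CPM. Levels were 41.1 and 32.3 CPM at 24 h, 39.6 and 64.3 at 36 h, and 76.9, 84.5, 130.3 and 92.2 at 48 h. All sections from 36 h and 48 h lay above those at 0 h, whereas 1 of the 24 h sections lay within their range. Cd36 was 3.48-fold higher at 48 h (log2 1.80 ± 0.23, n = 4 against 3, edgeR adjusted p = 0.000213) and 1.89-fold higher at 36 h (0.92 ± 0.26, adjusted p = 0.0243). The change of 0.42 ± 0.26 at 24 h did not pass (adjusted p = 0.225), though it did under total-count scaling (0.74, adjusted p = 0.0368). The 36 h call was lost without 36 h section B (0.52, adjusted p = 0.241) or 0 h section 2 or 4 (0.87 and 0.79, adjusted p of 0.0752 and 0.0802). The summed phagocyte markers were higher in the same sections, and section C was highest at 48 h for both Cd36 and the phagocyte list (1327 CPM, with 1316 in section D); their part in the result was not tested.

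Fabp4, a fatty acid carrier of adipocytes, macrophages and capillary endothelium, was at 35.3, 34.8 and 33.4 CPM at 0 h. It was at 55.3 and 59.8 CPM at 24 h, 37.0 and 127.7 at 36 h, and 69.5, 79.8, 100.3 and 69.0 at 48 h. Every injured section was above every uninjured one. Fabp4 was 2.31-fold higher at 48 h (log2 1.21 ± 0.33, n = 4 against 3, edgeR adjusted p = 0.0142) and 2.39-fold higher at 36 h (1.25 ± 0.38, adjusted p = 0.0324), with 0.74 ± 0.38 at 24 h (adjusted p = 0.145). Without 36 h section B the 36 h change was 0.10 (adjusted p = 0.76), and that call was also lost without 0 h section 2, 3 or 4 (1.21 to 1.25, adjusted p of 0.0776 to 0.0812). At 24 h Fabp4 passed without 36 h section A or B (0.74 and 0.70, adjusted p of 0.00265 and 0.00414) and under total-count scaling (1.06, adjusted p = 0.0343). The endothelial markers (7 genes) summed to 247 to 283 CPM at 0 h, 210 to 228 at 24 h, 202 and 325 in 36 h sections A and B and 207 to 264 at 48 h, with the highest sum in section B, where Fabp4 was highest too; their part in the result was not tested.

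Pnpla2, the lipase itself, did not pass at any time. It was at 56.2, 65.0 and 56.7 CPM at 0 h, 30.4 and 42.0 at 24 h, 45.3 and 80.6 at 36 h, and 47.8, 30.3, 47.9 and 45.5 at 48 h. Both the 24 h and the 48 h sections lay below the lowest uninjured section, while section B at 36 h was the highest of all 11. The log2 change was -0.71 ± 0.26 at 24 h (edgeR adjusted p = 0.0502), 0.08 ± 0.26 at 36 h (adjusted p = 0.828) and -0.47 ± 0.21 at 48 h (adjusted p = 0.0992), which was 0.06 at 48 h under total-count scaling (adjusted p = 0.811). Pnpla2 passed at 24 h without 36 h section A, 36 h section B or 48 h section B (-0.71 to -0.75, adjusted p of 0.0159 to 0.0307) and at 48 h without 36 h section A or B (both -0.47, adjusted p of 0.04 and 0.0433). Its 36 h change was -0.39 without section B and 0.44 without A (adjusted p of 0.337 and 0.202).

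G0s2, which binds and inhibits that lipase, was at 109.0, 63.2 and 83.7 CPM at 0 h and fell to 28.4 and 18.5 CPM at 24 h. It was at 38.1 and 41.3 CPM at 36 h. At 48 h 3 sections were at 23.0, 30.7 and 27.7 CPM and section D at 75.0, within the uninjured range. G0s2 was 3.63-fold lower at 24 h (log2 -1.86 ± 0.49, n = 2 against 3, edgeR adjusted p = 0.0131) and 2.18-fold lower at 48 h (-1.12 ± 0.38, adjusted p = 0.0361), with -1.10 ± 0.48 at 36 h (adjusted p = 0.107). The 24 h call was lost without 24 h section B (-1.59, adjusted p = 0.106). The 48 h call was lost without 0 h section 2 or 4, 36 h section A or B, or 48 h section A, B or C (-0.91 to -1.15, adjusted p of 0.0589 to 0.125) and under total-count scaling (-0.60, adjusted p = 0.186), and the 36 h change passed without 48 h section D (-1.10, adjusted p = 0.0109). Without 36 h section B the 36 h change was -1.16 (adjusted p = 0.286).

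Hilpda, a hypoxia-inducible inhibitor of the same lipase, was higher at 24 h and 48 h, where G0s2 was lower. It was at 4.42, 5.01 and 5.62 CPM at 0 h and rose to 9.57 and 14.2 CPM at 24 h. The 36 h sections held 4.84 and 9.25 CPM, and those at 48 h held 9.43, 7.11, 9.84 and 10.97. The sections at 24 h and 48 h lay above all uninjured ones, and 36 h section A lay among them. Hilpda was 2.37-fold higher at 24 h (log2 1.24 ± 0.27, n = 2 against 3, edgeR adjusted p = 0.00436) and 1.87-fold higher at 48 h (0.90 ± 0.23, adjusted p = 0.0102), with 0.49 ± 0.28 at 36 h (adjusted p = 0.202). The 24 h call was lost without 24 h section B (0.93, adjusted p = 0.0525), and at 36 h Hilpda passed without 36 h section A (0.88, adjusted p = 0.0267), as it did with total-count scaling (0.92, adjusted p = 0.0141), but without 36 h section B the change was -0.05 (adjusted p = 0.926).

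**Figure D2:**
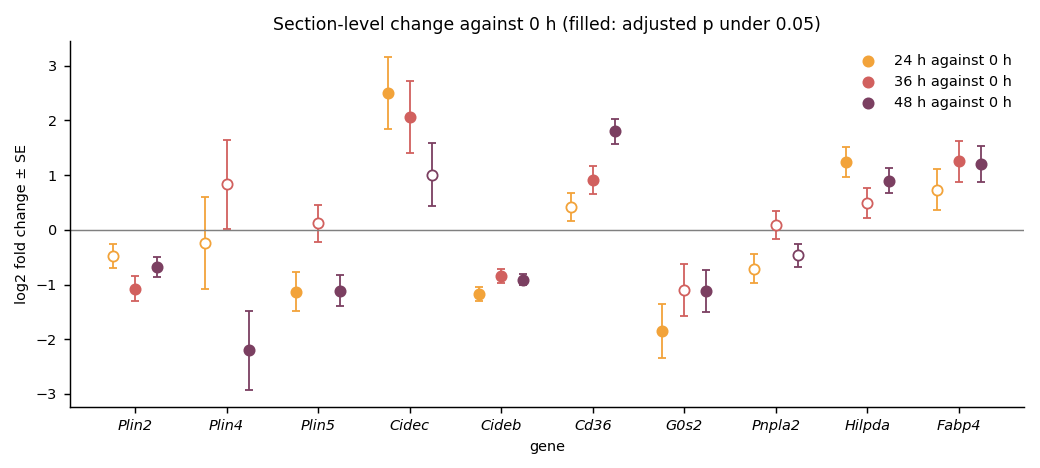
Log2 fold change ± SE against 0 h (vertical axis) of each member (horizontal axis) at 24 h, 36 h and 48 h, with filled points for an edgeR adjusted p under 0.05. Cd36 rises from 0.42 at 24 h to 1.80 at 48 h, Cideb stays between -0.84 and -1.18, and Plin4 and Cidec have the widest errors; the changes of Plin4 at 24 h and Pnpla2 at 48 h have the other sign under total-count scaling (0.08 and 0.06).

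Between injured time points, 0 of 10 members passed from 24 h to 36 h (edgeR, 5 at an unadjusted p under 0.05, 2 by DESeq2) where 15.6% of all genes did, and 0 of 10 from 36 h to 48 h (4 unadjusted, 3 by DESeq2) where 3.05% did. The nearest were Plin5 from 24 h to 36 h (log2 1.25 ± 0.38, adjusted p = 0.0508) and, from 36 h to 48 h, Plin5 (-1.23 ± 0.31, adjusted p = 0.0652), Plin4 (-3.03 ± 0.78, adjusted p = 0.0666) and Cd36 (0.89 ± 0.26, adjusted p = 0.091). Leaving out 36 h section A or B decided several of these. Without A, Plin5 passed in both comparisons (1.82 and -1.80, adjusted p of 0.00167 and 0.00299), as did Fabp4 (1.15, adjusted p = 0.00525), Pnpla2 (1.15, adjusted p = 0.0154) and Cideb (0.46, adjusted p = 0.0418) from 24 h to 36 h and Plin4 (-3.86, adjusted p = 0.0382) from 36 h to 48 h. Without B, Hilpda passed from 24 h to 36 h (-1.25, adjusted p = 0.0357), and from 36 h to 48 h Cd36 passed (1.27, adjusted p = 0.0416) and Fabp4 was higher at 48 h (1.10, adjusted p = 0.0208) instead of level (-0.05, adjusted p = 0.958).

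The other lipid genes were led by falls among PPAR alpha targets and lipolysis genes. Of 12 PPAR alpha target genes, 9 were lower and 0 higher at 24 h, 5 and 0 at 36 h, and 9 and 0 at 48 h, with a median log2 change of -1.22, -1.02 and -1.33 where the median of all genes was 0.05, 0.05 and 0.01. Among all genes 18.6, 12.4 and 20.9% were lower and 23.1, 16.8 and 23.3% higher at these times. The same shares stand beside each list below under TMM scaling. Under total-count scaling 6097, 7064 and 8920 of all genes were higher and 1487, 442 and 599 lower, where the main fit tested 14821. Those numbers stand beside each list's counts under that scaling. Of the PPAR alpha targets 7, 3 and 6 were then lower and 0 higher. The 36 h count was 2 or 3 without 0 h section 2, 0 h section 3 or 36 h section B. Ehhadh, an enzyme of peroxisomal fatty acid oxidation, went from 153 to 155 CPM at 0 h to 11.3 and 15.7 at 24 h (11.4-fold lower, edgeR adjusted p = 0.000155). Acot1, a cytosolic acyl-CoA thioesterase, was 5.34-fold lower at 24 h (adjusted p = 0.000891) and 4.18-fold lower at 48 h (adjusted p = 0.000393). Vnn1, a pantetheinase induced by fasting, was 4.83-fold lower at 48 h (adjusted p = 0.000855).

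Among 6 lipolysis genes, 4, 4 and 5 were lower at 24 h, 36 h and 48 h and 0 were higher (3, 2 and 3 lower and 0, 0 and 1 higher under total-count scaling). Aadac, a lipase of the hepatocyte endoplasmic reticulum, was 4.23-, 2.51- and 3.05-fold lower (adjusted p of 0.000136, 0.003 and 0.00012), and Mgll, which cleaves monoglycerides, was 2.91-, 2.20- and 3.09-fold lower (adjusted p of 0.001, 0.00857 and 0.000176). Of 13 genes of fatty acid uptake, binding and activation, 8, 6 and 8 were lower and 0, 1 and 2 higher, whereas under total-count scaling 6, 1 and 5 were lower and 1, 3 and 3 higher. The 36 h count of lower genes in this list was 0 without 36 h section B, and 2, 2 and 3 without 0 h section 2, 3 or 4. Fabp1, the main fatty acid carrier of hepatocytes, was at 19450 to 23350 CPM at 0 h and 1070 to 5220 at 48 h (7.87-fold lower, adjusted p = 0.00407), the reverse of Fabp4. Acsl1, which activates fatty acids to acyl-CoA, was 5.43-fold lower at 24 h (adjusted p = 0.00176) and 3.06-fold lower at 48 h (adjusted p = 0.00333).

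Of 11 genes of triglyceride and sterol ester synthesis, 5, 2 and 7 were lower and 2, 2 and 1 higher, and under total-count scaling 1, 1 and 3 were lower and 2, 4 and 2 higher. Dgat2, which makes triglyceride, was 2.01-fold lower at 48 h (adjusted p = 0.000219). Lpin1, a phosphatidate phosphatase induced by fasting, was at 74.8 to 100.5 CPM at 0 h, at 34.0 and 181.3 in 36 h sections A and B, and 4.51-fold lower at 48 h (adjusted p = 0.00469). Of 11 tested genes of droplet coat, fusion and biogenesis, members left out, 4, 3 and 6 were lower and 2, 1 and 1 higher, with medians of -0.09, -0.24 and -0.46. Under total-count scaling this list's median was 0.24, 0.20 and 0.06. That was below the median of all genes under that scaling at each time (0.372, 0.485 and 0.537). Fitm1, a membrane protein that helps droplets form, was 5.01-, 7.74- and 16.8-fold lower (adjusted p of 0.00318, 0.00255 and 5.6e-05).

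Of 11 hypoxia genes, 2 were higher at each time, with 2, 2 and 4 lower, beside 23.1, 16.8 and 23.3% higher and 18.6, 12.4 and 20.9% lower among all genes. Under total-count scaling 3, 2 and 3 were higher and 1, 0 and 2 lower. Slc2a1, a glucose transporter, rose from 6.94 to 9.29 CPM at 0 h to 14.6 and 25.5 at 24 h (2.44-fold, edgeR adjusted p = 0.00192) and stayed 1.87-fold higher at 48 h (adjusted p = 0.00546). Pdk1, a kinase that shuts off pyruvate oxidation, was 3.32-fold lower at 24 h (adjusted p = 0.00139) and 3.44-fold lower at 48 h (adjusted p = 0.000282). Of 3 lipoprotein export genes, 1, 2 and 2 were lower, but 0 at each time under total-count scaling. Mttp, which loads lipid onto apolipoprotein B, was 1.88-fold lower at 48 h (adjusted p = 0.00181) and was not called under total-count scaling (-0.38, adjusted p = 0.0773). Of 9 transcription factors of lipid storage, 1, 0 and 2 were lower and 0 were higher. Under total-count scaling 2, 4 and 2 were higher and 0, 0 and 1 lower, where 6097, 7064 and 8920 of all genes were higher.

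Over the 11 sections, the genes nearest in pattern were found by the root mean square (RMS) difference of centred log2 levels among about 7092 genes at a mean of 10 CPM or more. Cideb had the closest, Cpq (RMS 0.09) and Pon1 (0.10). Those of Hilpda were Lrrc32 (0.14) and Tpm4 (0.18), those of Cd36 were Gltp (0.15) and Cd84 (0.17), and those of Plin2 were Abhd17c (0.17) and Skp1a (0.21). Pnpla2 was followed by Gpihbp1 (0.19) and Flt4 (0.20), Fabp4 by Ppp1r18 (0.20) and Lamc1 (0.22), Plin5 by Slc25a15 (0.23) and Got1 (0.24), and G0s2 by Gpcpd1 (0.27) and Tob1 (0.30). Cidec (Pvr, 0.39, and Myh9, 0.44) and Plin4 (Lpin1, 0.53, and Noct, 0.59) had the largest RMS to their nearest genes. Their median RMS over all ranked genes was also the largest (0.94 and 1.08, beside 0.45 to 0.89 for the other members). The RMS values are therefore not comparable between members. The sections share time points, so this is a description.

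In the uninjured lobule, Fabp4 was higher around central veins and Hilpda around portal tracts. Spots were ranked in each 0 h section by a score of 23 central minus 12 portal genes, none of them a member, and the 25% at either end were compared, with the section as a block. Of 10 members 4 passed, 2 higher and 2 lower in pericentral spots, where 24.9% of all genes did, 11.9% higher and 12.9% lower. Levels in these spot groups are scaled among themselves and are not on the scale of the whole sections.

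Fabp4 was at 38.0, 37.4 and 39.6 CPM in pericentral spots of sections 2, 3 and 4 against 23.4, 26.3 and 20.3 in periportal spots, a log2 difference of 0.70 ± 0.07 (edgeR adjusted p = 2.14e-12). Endothelial markers were 213 to 236 CPM pericentrally and 167 to 199 periportally; their part in the result was not tested. Hilpda was at 2.35, 3.19 and 3.15 CPM pericentrally against 3.90, 5.39 and 6.20, a difference of -0.81 ± 0.16 (adjusted p = 2.41e-05). Both held the same direction in 3 of 3 sections, with no overlap between the spot groups.

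Cd36 and Cideb differed little by zone. Cd36 was at 22.1, 24.3 and 14.5 CPM pericentrally against 22.2, 29.5 and 23.9 periportally (-0.29 ± 0.09, edgeR adjusted p = 0.0291), and Cideb at 161.7, 158.7 and 139.5 against 147.1, 148.9 and 132.6 (0.10 ± 0.03, adjusted p = 0.0166). Neither passed by DESeq2. The Cd36 call was lost without section 3 (-0.31, adjusted p = 0.299) or 4 (-0.16, adjusted p = 0.132), and the Cideb call without section 2 (0.08, adjusted p = 0.197) or 3 (0.11, adjusted p = 0.0759). Plin2 did not pass (-0.12 ± 0.09, adjusted p = 0.48) but did without section 2 (-0.17, adjusted p = 0.000174), and Pnpla2 was near level (0.01 ± 0.05, adjusted p = 0.88). Of the 12 PPAR alpha targets 8 were higher in pericentral spots and 0 lower.

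**Figure D3:**
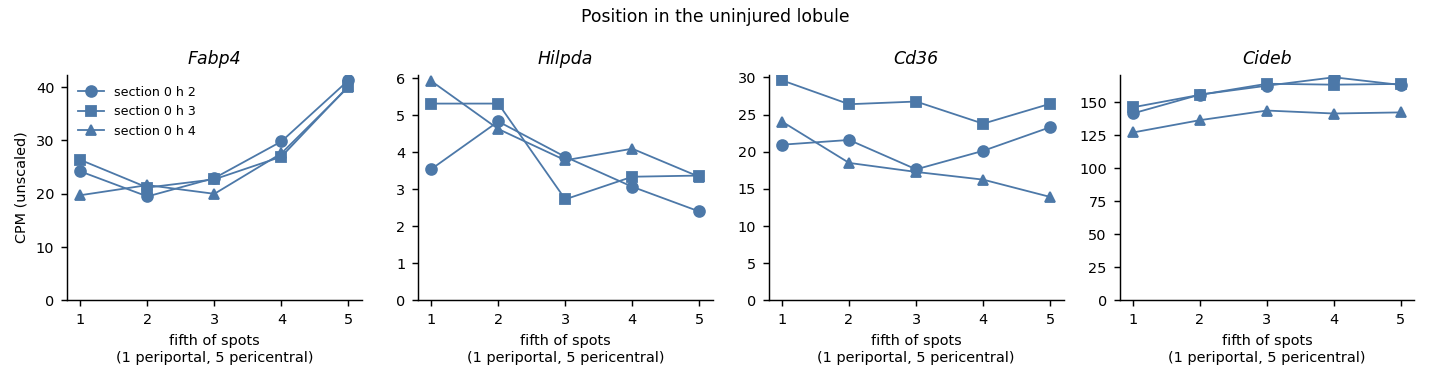
Level of Fabp4, Hilpda, Cd36 and Cideb (CPM without scaling, vertical axes) in 5 bins of equal spot number from periportal (1) to pericentral (5) in the 3 uninjured sections. Fabp4 stays between 19.5 and 29.8 CPM over bins 1 to 4 and reaches 40.0 to 41.3 in bin 5 of every section, while Hilpda is highest in bin 1 or 2.

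At 48 h, spots low in hepatocyte transcripts held more Cd36, Fabp4, Hilpda and Plin2 and less Plin5 and Cideb. Hepatocyte-low spots were those whose hepatocyte score (6 genes, at 2000 UMIs a spot) fell below percentile 1 of 0 h spots. They made up 1.88 to 6.09% of spots at 48 h (28, 54, 111 and 160 spots), but 21 and 10 spots at 24 h and 9 and 3 at 36 h. Uninjured sections 2, 3 and 4 held 18, 40 and 20 of them. At 48 h their median UMI count was 20871 to 27207 in the 4 sections, beside 17174 to 28455 in far spots. Ring 1 holds the spots that touch them, and far spots lie 3 or more steps away. At 48 h 9 of 10 members passed between hepatocyte-low and far spots, 5 higher and 4 lower, where 57.5% of all genes did, 28.8% higher and 28.7% lower. In ring 1 also 9 passed, 5 higher and 4 lower, against 40.6% of all genes, 19.6% higher and 21.0% lower. Total-count scaling moved the median of all genes up by 0.56 for low spots, and the share of calls that were higher from 50.1 to 82.8%.

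Cd36 in sections A to D at 48 h was at 247.7, 269.2, 422.3 and 364.1 CPM in hepatocyte-low spots. It was at 140.3, 154.1, 201.0 and 182.1 in ring 1 and at 77.0, 97.7, 112.5 and 96.3 in far spots. The order low, ring 1, far held in 4 of 4 sections, with no overlap between any of the spot groups. The log2 difference from far spots was 1.77 ± 0.06 for low spots (edgeR adjusted p = 5.81e-33) and 0.82 ± 0.06 for ring 1 (adjusted p = 3.59e-18).

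**Figure D4:**
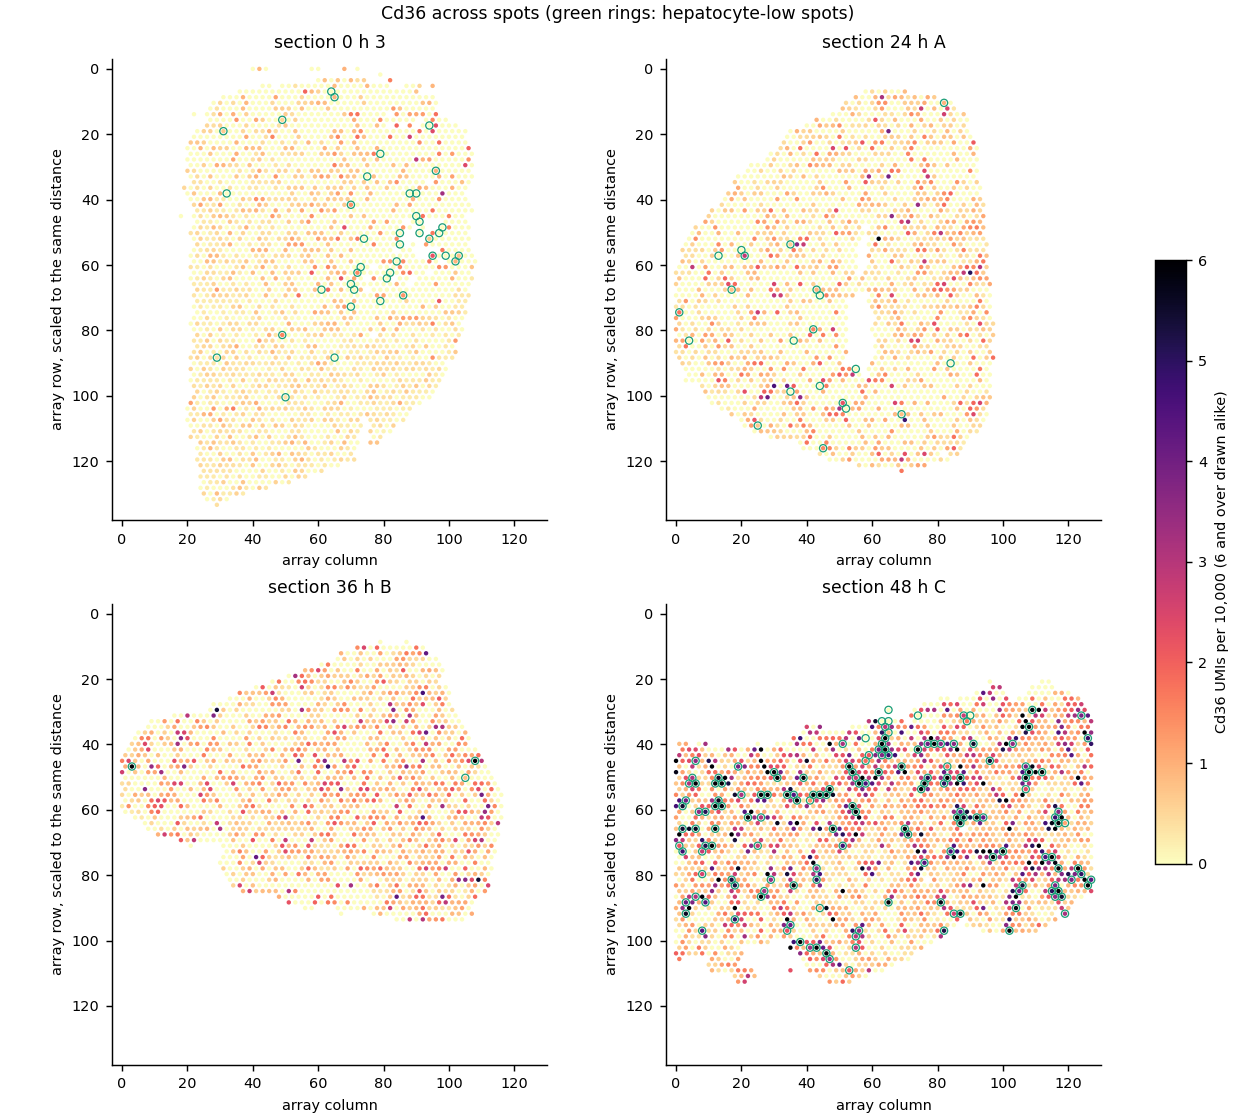
Cd36 UMIs per 10,000 (colour) in each spot of a section from every time point, placed by array column and row (axes, in array units); green rings mark hepatocyte-low spots. At 48 h in section C high values gather at the 160 hepatocyte-low spots, whose summed Cd36 level was 422.3 CPM against 112.5 in far spots.

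Fabp4 was at 193, 235.5, 239.6 and 214.6 CPM in the low spots of A to D and 72.7, 92.99, 100.2 and 76.2 in far spots (log2 1.37 ± 0.07, edgeR adjusted p = 2.31e-18). Plin2, although lower in whole sections at 48 h, was at 725.5, 553.6, 736.8 and 693.9 CPM in low spots against 414.9, 367.5, 317.5 and 528.0 far from them (0.77 ± 0.09, adjusted p = 2.16e-06). Hilpda was at 19.8, 16.3, 19.9 and 24.5 CPM against 10.5, 8.34, 10.4 and 12.3 (0.96 ± 0.13, adjusted p = 2.05e-09). For all 3 genes every low-spot sum lay above every far-spot sum. In ring 1 they were also higher than in far spots (0.65, 0.36 and 0.52), with the Plin2 call lost without section A (0.32, adjusted p = 0.0661).

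Plin5 was at 7.56, 7.14, 5.14 and 9.13 CPM in low spots against 32.8, 21.8, 24.6 and 26.6 in far spots, a fall of 1.99 on the log2 scale (SE 0.16, edgeR adjusted p = 3.58e-17). Cideb was at 45.7, 47.9, 31.99 and 44.5 CPM against 123.4, 129.7, 162.9 and 140.9 (-1.82 ± 0.12, adjusted p = 7.76e-12). The spot groups did not overlap for either gene. G0s2 was lower as well (-0.66 ± 0.12, adjusted p = 8.85e-06), though not under total-count scaling (-0.10, adjusted p = 0.425), and Pnpla2 was lower by a little (-0.35 ± 0.08, adjusted p = 0.000128) but higher under total-count scaling (0.21, adjusted p = 0.0179).

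Cidec was at 10.4, 2.04, 2.01 and 1.14 CPM in low spots against 3.67, 1.88, 1.45 and 1.26 in far spots, so section A carried the difference (1.01 ± 0.28, edgeR adjusted p = 0.00193). Without section A it was 0.32 (adjusted p = 0.58), and in ring 1 it went from 0.85 ± 0.19 (adjusted p = 0.000175) to 0.52 (adjusted p = 0.117). Section A held the most adipocyte transcripts; their part in it was not tested. Plin4 did not pass (-0.61 ± 0.70, adjusted p = 0.469).

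Hepatocyte markers, whose genes define the low spots, were at 30550 to 41020 CPM there and 104800 to 118400 in far spots. Mononuclear phagocyte markers were at 2362 to 5053 against 738 to 1339, markers of lipid-associated macrophages (4 genes) at 1129 to 2141 against 415 to 838, myofibroblast markers at 1897 to 4506 against 473 to 1220, and endothelial markers at 384 to 425 against 248 to 318. Their part in the members' differences was not tested. With another hepatocyte list, which drops Cyp2e1 and adds Trf and so has its own threshold, low spots at 48 h numbered 15, 1, 33 and 1, and with section C alone Hilpda (0.27, edgeR adjusted p = 0.688), Cidec (0.98, adjusted p = 0.557) and G0s2 (-0.27, adjusted p = 0.517) were no longer called. Among other lipid genes, 9 of 12 PPAR alpha targets were lower in low spots and 1 higher (median -1.18), and 8 of 11 synthesis genes lower and 1 higher (median -1.16), where the median of all genes was 0.02. Under total-count scaling these were 7 lower and 2 higher (median -0.64) and 7 lower and 1 higher (median -0.61). The median of all genes was then 0.572, with 8327 genes higher and 1725 lower. Of 3 lipoprotein export genes 3 were lower under either scaling. The counts of the remaining lists depended on the scaling, while their medians lay below that of all genes under either. Of 10 tested coat and biogenesis genes 8 were lower and 0 higher (median -0.42), but 3 lower and 4 higher under total-count scaling (median 0.13). Of 13 uptake genes 8 were lower and 3 higher (median -0.62), but 6 and 5 under that scaling (median -0.07). Of 5 tested lipolysis genes 3 were lower and 1 higher (median -0.22), but 1 and 2 (median 0.33), of 11 hypoxia genes 6 and 1 (median -0.41), but 2 and 4 (median 0.14), and of 9 transcription factors 5 and 2 (median -0.80), but 4 and 3 (median -0.25).

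**Figure D5:**
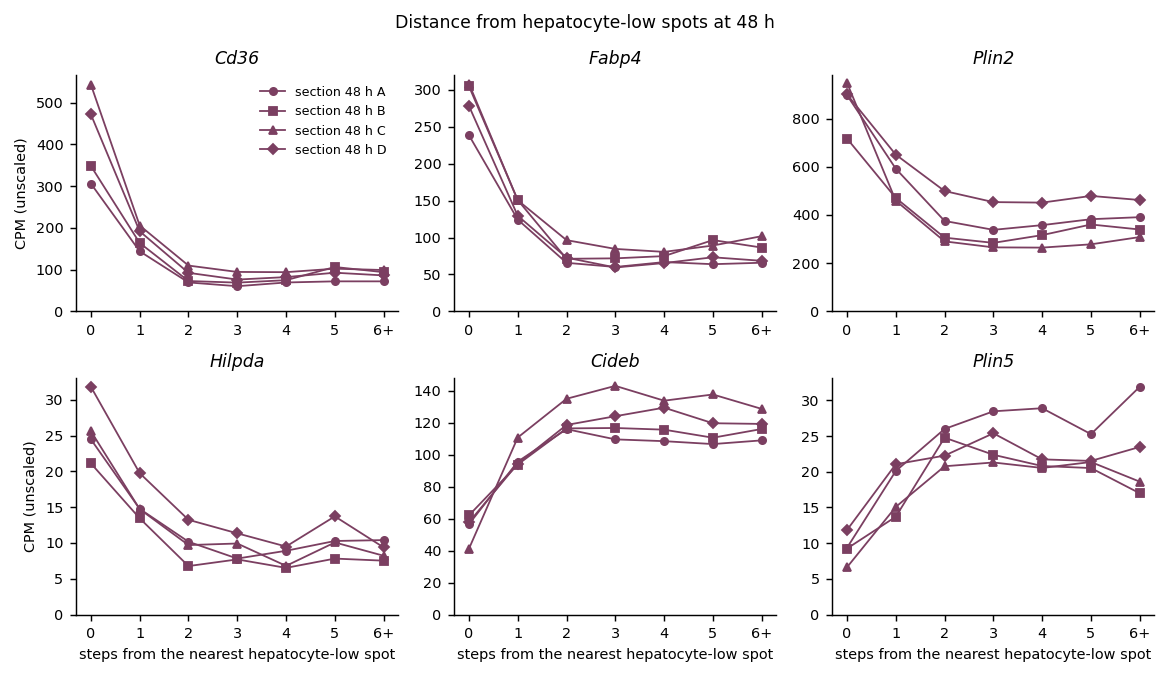
Level of 6 members (CPM without scaling, vertical axes) by the number of steps between neighbouring spots from the nearest hepatocyte-low spot (horizontal axes; 0 is the low spots, 6+ is 6 steps or more) in the 4 sections at 48 h. Cd36 falls from 306 to 544 CPM at step 0 to between 60.3 and 109.7 CPM from step 2 on, and Plin5 rises from 6.62 to 11.8 CPM at step 0 to 20.8 to 26.0 at step 2.

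Earlier, too few hepatocyte-low spots were present for more than a few calls. Their numbers at 24 h (21 and 10) and 36 h (9 and 3) were within or below those of uninjured sections (18, 40 and 20). By number they cannot be told apart from the low spots of uninjured liver. In 24 h section A low spots held 718 CPM of phagocyte and 149 of myofibroblast markers, against 721 and 120 in far spots. Whether these early low spots mark lesions was not tested. At 24 h section A alone entered for low spots, with its spread taken from the other injured sections, and 0 of 10 members passed (edgeR, 1 at an unadjusted p under 0.05, 1 by DESeq2) where 3.71% of all genes did; that one was Cideb (47.9 against 108.2 CPM, log2 -1.21 ± 0.43, adjusted p = 0.164), which passed when 48 h section C was left out of the shared fit (-1.23, adjusted p = 0.00345). In ring 1 at 24 h only Cd36 passed, 1 of 10 members against 2.72% of all genes, at 65.6 and 59.8 CPM against 48.8 and 37.4 in far spots of A and B (0.52 ± 0.14, adjusted p = 0.0303). That call was lost without 24 h section A (0.66, adjusted p = 0.19) or B (0.43, adjusted p = 0.484), and Fabp4 passed without A (0.81, adjusted p = 0.00237).

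At 36 h only section A had enough ring 1 spots, so these are values of a single section, tested on the assumption that it varies like the sections of the other times. On that footing 2 of 10 members passed where 4.46% of all genes did. Cd36 was at 90.5 CPM against 45.8 in far spots (log2 0.98 ± 0.20, edgeR adjusted p = 0.000649) and Fabp4 at 77.6 against 44.5 (0.80 ± 0.24, adjusted p = 0.0474). The Fabp4 call was lost when any 48 h section was left out of the shared fit (0.80 to 0.81, adjusted p of 0.0645 to 0.11), while Cideb passed without 48 h section C (-0.65, adjusted p = 0.017) and G0s2 without 48 h section D (-0.94, adjusted p = 0.0297). The difference between low and far spots was also compared between 48 h (4 sections) and 24 h, where section A is the only one and its spread is assumed to be that of the other sections. On that footing 1 of 10 members passed, Cd36 (1.32 ± 0.28, edgeR adjusted p = 0.00128), where 4.06% of all genes did. Plin2 also passed this test without 48 h section C or D (0.52 and 0.80, adjusted p of 0.0132 and 0.00343) and Fabp4 without 24 h section B (0.97, adjusted p = 0.00767).

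Since hepatocyte-low spots were few before 48 h, the members were also compared, by a choice made after those counts were seen, between the 10% of spots of each section with the highest summed phagocyte and myofibroblast markers and the 50% with the lowest. These rich spots overlapped the hepatocyte-low ones only in part: at 48 h they held 64.4 to 83.3% of the low spots, which were 14.8 to 39.2% of the rich spots. In uninjured liver 0 of 10 members passed (edgeR, 2 unadjusted, 0 by DESeq2) where 0.606% of all genes did. After APAP 5 of 10 passed at 24 h, 2 higher and 3 lower, against 23.9% of all genes, 10.1% higher and 13.8% lower. At 36 h 8 passed, 4 higher and 4 lower, against 32.3%, 15.6% higher and 16.7% lower. At 48 h 9 passed, 5 higher and 4 lower, against 69.8%, 36.7% higher and 33.1% lower. The change of this difference from 0 h passed for 2 members at 24 h (7.98% of all genes), 3 at 36 h (16.4%) and 7 at 48 h (43.5%). The same 10% was taken in every section, so the marker sums of the rich spots differ between times, as given below.

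Cd36 showed the step with time most plainly. In uninjured liver rich spots were at 27.0, 34.5 and 22.5 CPM and poor spots at 27.7, 34.3 and 25.7, a log2 difference of -0.06 ± 0.10 (edgeR adjusted p = 0.853). At 24 h rich spots were at 73.8 and 64.2 against 33.6 and 26.7 (1.19 ± 0.11, adjusted p = 2.65e-10), and at 36 h at 92.6 and 112.6 against 30.0 and 55.7 (1.30 ± 0.10, adjusted p = 4.34e-12). At 48 h they were at 211.4, 212.6, 337.4 and 254.2 against 46.6, 49.5, 70.5 and 54.1 (2.20 ± 0.06, adjusted p = 1.43e-25). In the rich spots themselves the 4 groups of sections did not overlap, and the difference exceeded that at 0 h by 1.25, 1.36 and 2.26 (adjusted p of 5.27e-06, 4.72e-08 and 1.15e-17).

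Cideb ran the other way: it was level at 0 h (211.3, 201.0 and 175.8 CPM in rich against 208.7, 206.6 and 185.4 in poor spots), and lower in rich spots after injury, with log2 differences of -0.55 ± 0.09, -0.86 ± 0.09 and -1.61 ± 0.06 at the 3 times (edgeR adjusted p of 2.07e-05, 1.2e-09 and 6.97e-23). At 48 h its rich spots were at 42.1, 40.4, 43.7 and 47.3 CPM and poor spots at 118.5, 130.2, 145.2 and 137.9. Its difference from 0 h was -0.52, -0.83 and -1.58 (adjusted p of 0.00316, 1.15e-06 and 6.36e-17), the 24 h value being lost without 24 h section B (-0.37, adjusted p = 0.182). Plin5 at 48 h was at 9.95, 7.37, 6.97 and 8.92 CPM in rich against 31.8, 23.9, 23.8 and 26.3 in poor spots (-1.67 ± 0.09, adjusted p = 4.94e-19). Plin5 was also lower in rich spots at 36 h (-0.90 ± 0.11, adjusted p = 3.39e-08) and 24 h (-0.46 ± 0.14, adjusted p = 0.0115), the 24 h call being lost without 24 h section A (-0.42, adjusted p = 0.216) or B (-0.50, adjusted p = 0.0674), by DESeq2 and under total-count scaling (-0.22, adjusted p = 0.276). Its difference from that at 0 h was -0.71 at 36 h (adjusted p = 0.000311), lost without 36 h section B (-0.50, adjusted p = 0.129), and -1.48 at 48 h (adjusted p = 1.56e-12).

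Fabp4 in rich spots at 48 h was at 160.4, 174.6, 189.1 and 151.9 CPM against 48.0, 51.1, 75.3 and 50.9 in poor spots (1.60 ± 0.14, edgeR adjusted p = 8.1e-06). At 36 h it was at 67.1 and 186.2 against 32.5 and 117.3 (0.82 ± 0.22, adjusted p = 0.0216; without 36 h section A 0.69 and without B 1.04, adjusted p of 0.121 and 0.097). At 24 h Fabp4 did not pass (0.67 ± 0.23, adjusted p = 0.0723) but did without 0 h section 2, 24 h section A, 48 h section B or 48 h section C (0.67 to 1.07, adjusted p of 0.00706 to 0.0439). Hilpda was at 17.6, 12.4, 16.7 and 19.9 CPM in rich against 7.61, 6.65, 7.77 and 9.02 in poor spots at 48 h (1.10 ± 0.11, adjusted p = 1.37e-11). It was higher by 0.80 ± 0.21 at 36 h (adjusted p = 0.00245; without 36 h section B 0.75, adjusted p = 0.139), whereas the 24 h value was 0.71 ± 0.18 (adjusted p = 0.00264; without 24 h section B 0.35, adjusted p = 0.447).

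Plin2 at 48 h was at 594.6, 454.7, 581.8 and 583.8 CPM in rich against 317, 266.3, 237.9 and 428.3 in poor spots (0.85 ± 0.10, edgeR adjusted p = 4.69e-06), and this exceeded the 0 h difference by 0.99 (adjusted p = 0.000138). At 36 h it was higher by 0.43 ± 0.14 (adjusted p = 0.0352), lost without either section at 24 h or 36 h or 48 h section A or B (0.35 to 0.54, adjusted p of 0.0713 to 0.359). At 24 h it was 0.21 ± 0.14 (adjusted p = 0.325) and passed without 48 h section C or D (both 0.26, adjusted p of 0.00949 and 0.0313). Cidec passed at 48 h (1.30 ± 0.22, adjusted p = 2.94e-06), at 8.58, 3.02, 1.99 and 1.02 CPM in rich against 2.61, 1.24, 1.01 and 0.83 in poor spots.

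G0s2 was lower in rich spots at 48 h (-0.68 ± 0.09, edgeR adjusted p = 8.37e-07), at 20.1, 23.0, 24.6 and 46.8 CPM against 26.1, 38.6, 31.99 and 97.9, and did not pass under total-count scaling (-0.15, adjusted p = 0.142). At 36 h it was lower by a log2 value of -0.60 ± 0.15 (adjusted p = 0.00285; without 36 h section B -0.53, adjusted p = 0.113) and at 24 h by -0.54 ± 0.18 (adjusted p = 0.0311), the latter lost without 24 h section A or B, 36 h section A or 48 h section B (-0.48 to -0.63, adjusted p of 0.0699 to 0.236). Neither passed under total-count scaling (-0.24 and -0.30, adjusted p of 0.205 and 0.265). Pnpla2 was lower by -0.29 ± 0.07 at 48 h (adjusted p = 0.000327) but higher by 0.24 under total-count scaling (adjusted p = 0.00187), and lower by -0.45 ± 0.10 at 36 h (adjusted p = 0.000682), lost without 36 h section B (-0.25, adjusted p = 0.286) or with total-count scaling (-0.10, adjusted p = 0.481). At 24 h Pnpla2 did not pass (-0.31 ± 0.12, adjusted p = 0.0537) but did without 0 h section 2 or 36 h section B (-0.31 and -0.32, adjusted p of 0.0491 and 0.0395). Plin4 did not pass at 48 h (-0.22 ± 0.42, adjusted p = 0.652) but did without 48 h section A (-1.64, adjusted p = 0.0251). At 36 h Plin4 was at -0.97 ± 0.38 (adjusted p = 0.0502) and passed without 36 h section A or 48 h section A, C or D (-0.94 to -1.33, adjusted p of 0.0126 to 0.0496).

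The rich spots were chosen by phagocyte and myofibroblast genes, whose sums in them at 48 h were 2002 to 3955 and 1559 to 3747 CPM against 379 to 714 and 219 to 581 in poor spots. At 0 h these sums were 619.7 to 754.5 and 51.7 to 85.6 CPM in rich against 352.5 to 363 and 34.8 to 38.65 in poor spots. Hepatocyte markers, not used to choose the rich spots, were at 32630 to 44900 CPM in rich against 98820 to 117500 in poor spots at 48 h, and at 111700 to 120300 against 114500 to 121000 at 0 h. Lipid-associated macrophage markers were at 955 to 1789 against 250 to 564 CPM at 48 h. The part of these markers in the members' differences, and in their change from 0 h, was not tested.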

How the data were processed

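Visium libraries from 11 mouse liver sections (3 uninjured, 8 after APAP) were analysed. The authors deposited, for each section, the raw UMI counts per gene and spot barcode of all 4992 array positions, unfiltered, with no normalization. The submitters' processing notes name Space Ranger 1.0.0, Seurat 4.1.1 and mm10, and whether counting used strand is not given in the sources used here. Here a spot under tissue was used if it held 800 or more genes and no more than 20% mitochondrial UMIs, which left 25136 (1490 to 3466 a section, 31292663 to 67045372 UMIs).

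Counts were summed per section, or per section and spot class, and tested with edgeR 4.0.16 (quasi-likelihood test, TMM scaling, low-count filter) on R 4.3.3 with limma 3.58.1. Each fit covered all genes passing the filter, 14821 for time, 12022 for zones, 14153 for hepatocyte-low classes and 13857 for rich and poor spots, with Benjamini-Hochberg adjustment over them and two-sided tests at 0.05. The time fit held all 11 sections without covariates, and the spot-class fits had the section as a block and left out classes under 20 spots. Standard errors are the absolute log2 change divided by the square root of the F statistic. Spot scores used counts thinned to 2000 UMIs a spot, and 14 shallower spots were left out of them. The hepatocyte list matched 6 of its 7 symbols. Hepatocyte-low classes use hepatocyte genes, zones use central and portal genes, and no member is in those lists. DESeq2 1.42.0 was an alternative, as were total-count scaling, DESeq2 size factors, no low-count filter, fits of only the groups compared, other class limits and leaving out each section. Python 3.11.15, NumPy 2.4.6, pandas 2.3.3, SciPy 1.17.1 and matplotlib 3.10.9 prepared sums and plots. The scripts were tested on simulated counts.

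The members and lists were chosen with earlier results of these data known. Genes named beside members were, per list and comparison with 0 h, up to 3 called genes at a mean of 10 CPM or more with the largest change, and for each member the 2 genes nearest in pattern, from log2 CPM with 0.5 added. Some of those the rule gives are not listed by name. Promoter windows are RefSeq's (GRCm38.p6). No section was left out, and no 2 sections agreed within sampling noise.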

Additional observations from a re-analysis of the deposited data

Results flagged for a closer look

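Among 38 gene and time point groups of 4 sections, 2 members and 2 other lipid genes had a section at 48 h farther from the rest than Dixon's test allows; chance marks about 1 in 20 such groups. G0s2 was at 75.0 CPM in section D against 23.0 to 30.7 in the other 3, and Pnpla2 was at 30.3 CPM in section B against 45.5 to 47.9. Mettl7b, a droplet-associated protein, was at 318 CPM in section D against 186 to 206, and Cyp4a10, a PPAR alpha target, was at 43.5 CPM in section A against 7.15 to 9.44.

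Differences between spot classes that themselves changed between time points were found for several members (edgeR, contrast of contrasts, adjusted p over all genes). The excess of Cd36 in hepatocyte-low over far spots was larger at 48 h than at 24 h by 1.32 on the log2 scale (adjusted p = 0.00128), but 24 h is section A alone, and the test assumes that it varies like the other injured sections.

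Against the difference at 0 h, that between phagocyte- and myofibroblast-rich and poor spots moved at 24 h by 1.25 for Cd36 and -0.52 for Cideb (edgeR adjusted p of 5.27e-06 and 0.00316). At 36 h it moved by 1.36 for Cd36, -0.83 for Cideb and -0.71 for Plin5 (adjusted p of 4.72e-08, 1.15e-06 and 0.000311). At 48 h it moved up by 2.26 for Cd36 (adjusted p = 1.15e-17), 1.55 for Fabp4 (0.00106), 1.04 for Hilpda (0.00031) and 0.99 for Plin2 (0.000138), and by -1.58 for Cideb (6.36e-17), -1.48 for Plin5 (1.56e-12) and -0.49 for G0s2 (0.00451). The G0s2 value was lost without 48 h section D (-0.25, adjusted p = 0.0714). The rich spots held less of the markers that define them at 0 h (phagocyte sums of 619.7 to 754.5 CPM) than at 48 h (2002 to 3955). The part of these markers in the moves was not tested.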

How the results depend on the processing

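Outside the fits that left out a section, 789 values of single members kept their side of the threshold. Another 33 lost and 72 gained a call, and 5 turned round. Over the fits without a section the numbers were 1681, 66, 51 and 2. Only values called in the main fit or the alternative could count as turned round. A value called in neither counts as kept even where its sign changed, as for Plin4 at 24 h (-1.26 to 0.37 over the alternatives). Under total-count scaling Pnpla2 turned from lower to higher at 48 h in hepatocyte-low (0.21), ring 1 (0.030) and rich spots (0.24) and in the rich difference from 0 h (0.38). G0s2 in low spots at 24 h was -0.86 with scores on unthinned counts, and without 36 h section B Plin5 at 36 h was -0.83 and Fabp4 from 36 h to 48 h was 1.10, where leaving out each section gave -0.83 to 0.68 and -0.68 to 1.10. The cause was not tested.

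The number of members called moved by over 1.5 times as follows. Total-count scaling gave 5 at 48 h, against 8 in the main fit. Over all genes it called 9519 there, against 6552 in the main fit. It gave 1 from 24 h to 36 h (2104 genes in all), 2 in ring 1 at 24 h (364) and 6 for the rich difference at 36 h (3801). DESeq2 size factors gave 1 from 24 h to 36 h, and DESeq2 gave 2 there, 3 from 36 h to 48 h, 2 for zones, 1 in low spots at 24 h, 2 for the low difference from 24 h to 48 h and 5 for the rich difference at 36 h. No low-count filter gave 3 at 36 h, 1 in low spots at 24 h, 4 in ring 1 at 36 h, 3 for the low difference, and 4 and 6 for the rich differences at 24 h and 36 h. Setting hepatocyte-low at percentile 5 gave 4 and 3 in low and ring 1 spots at 24 h, 6 and 5 at 36 h and 5 for the low difference, and unthinned scores gave 4, 3, 3, 4 and 4.

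Leaving out each section gave 1 to 7 members at 24 h, 2 to 7 at 36 h and 6 to 8 at 48 h, 0 to 4 from 24 h to 36 h, 0 to 2 from 36 h to 48 h and 2 to 4 for zones. It gave 0 to 1 in low and 0 to 1 in ring 1 spots at 24 h, 1 to 2 in ring 1 at 36 h, 8 to 9 in low and 7 to 9 in ring 1 spots at 48 h, and 1 to 2 for the low difference. For rich spots it gave 0 at 0 h, 2 to 7 at 24 h, 3 to 9 at 36 h and 9 to 10 at 48 h, and 1 to 4, 2 to 5 and 7 for the differences from 0 h.

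Over all genes, total-count scaling called 7506 at 36 h against 4329, 148 against 84 for rich spots at 0 h and 3801 against 2266 for the rich difference at 36 h. DESeq2 called 1224 against 452 from 36 h to 48 h, 1280 against 2988 for zones and 131 for rich spots at 0 h, where no filter gave 337. Fits of only the groups compared called 1 against 2315 from 24 h to 36 h and 0 against 452 from 36 h to 48 h. Percentile 5 and unthinned scores called 2946 and 2076 against 525 in low spots at 24 h, 1018 and 757 against 385 in ring 1 at 24 h, and 2078 and 1527 against 575 for the low difference, and percentile 5 called 971 against 631 in ring 1 at 36 h.

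With the section letter as a replicate block, over injured sections only, 0 members were called from 24 h to 36 h and 0 from 36 h to 48 h, and 82 and 0 genes in all against 984 and 7 without the block. Letters did not pair sections across all times, by correlations of the deviations of same-letter sections over 7093 genes. Between 24 h and 36 h the correlation was 0.46. Each of these times holds only A and B, so both letters give the same value. With 48 h no such pairing was seen, at -0.17 for both letters from 24 h and at 0.02 and -0.27 from 36 h. Whether the letters share a factor between 24 h and 36 h was not tested.

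Low spots at 36 h had no value at percentile 1, and the hepatocyte list without Cyp2e1 and with Trf left enough low spots to test in 48 h section C alone (33 spots), with 0 or 1 a section at 24 h and 36 h. Plin4 and Cidec rest on 20 to 335 and 30 to 270 UMIs a section, which limits their precision.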
